A study of Rattus norvegicus with 8 samples.

Results

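A set of 10 genes of mucosal defence was chosen by name: the Reg lectins Reg3g, Reg3b, Reg3a and Reg1a, the lysozyme gene Lyz2, the siderophore binder Lcn2, the calprotectin subunits S100a8 and S100a9, the antibody transporter Pigr, and the goblet cell peptide gene Retnlb. The list was drawn up with earlier results of these same arrays known, among them the difference between the diets, so that difference is a description below. P-values from the fit over all probe sets are printed only to place the genes in it, and nothing rests on them. Every probe set whose only gene symbol was one of the 10 was taken, however dim, which gave 9 probe sets for 9 genes out of 14217 genes with a probe set. Retnlb had no such probe set and was not analysed here.

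The arrays were made from total RNA of rat distal colon mucosa, scraped off with glass slides and kept in RNAlater. The quercetin group (4 arrays) had eaten a diet with 10 g of quercetin, a plant flavonol, per kg for 11 weeks. The control group (4 arrays) had eaten the control diet, RM3 rat breeder chow, for the same 11 weeks. The labels read here do not name strain, sex, age or any pooling of animals, and since the labels do not say outright that each array is a separate rat, the spread between arrays may be partly technical.

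Reg3 lectins are small secreted C-type lectins. In mice and humans they bind sugars of the bacterial wall and kill or hold off gram-positive bacteria, and intestinal epithelium makes them when microbes or interleukin-22 acting through the transcription factor STAT3 call for them. The rat genes were first known as pancreatitis-associated proteins and, for Reg1a, as the gene of pancreatic stone protein, since inflamed or regenerating pancreas makes them in quantity. Lysozyme, lipocalin 2 and calprotectin are chiefly products of neutrophils and macrophages that cut cell walls, trap bacterial iron carriers and withhold zinc and manganese. The polymeric immunoglobulin receptor carries IgA across colonocytes into the gut.

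All 4 Reg genes lie in one stretch of rat chromosome 4, in the order Reg3b, Reg3a, Reg1a and Reg3g, with a pseudogene, Reg3b-ps1, between Reg3b and Reg3a. Their start-site windows are printed because Reg3g and Reg3b had the same order of the 3 highest arrays. Each runs from 250 bases before to 50 bases after the annotated start, in RefSeq's GRCr8 build. Capitals mark 2 motifs found on the printed strand: TATAAA, the TATA box, and TTCNNNGAA, the letters of a STAT site, which read the same on both strands. They are Reg3g at chr4:112484689-112484988 (minus strand), Reg3b at chr4:112419526-112419825 (plus), Reg3a at chr4:112430147-112430446 (plus, the first of its 2 annotated starts) and Reg1a at chr4:112450216-112450515 (plus).
Reg3g: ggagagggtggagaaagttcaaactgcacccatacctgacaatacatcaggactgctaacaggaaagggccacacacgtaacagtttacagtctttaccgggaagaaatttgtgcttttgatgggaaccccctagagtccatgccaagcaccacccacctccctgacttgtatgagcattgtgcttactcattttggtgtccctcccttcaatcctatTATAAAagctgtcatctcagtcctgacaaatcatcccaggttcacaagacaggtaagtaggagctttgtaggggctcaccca
Reg3b: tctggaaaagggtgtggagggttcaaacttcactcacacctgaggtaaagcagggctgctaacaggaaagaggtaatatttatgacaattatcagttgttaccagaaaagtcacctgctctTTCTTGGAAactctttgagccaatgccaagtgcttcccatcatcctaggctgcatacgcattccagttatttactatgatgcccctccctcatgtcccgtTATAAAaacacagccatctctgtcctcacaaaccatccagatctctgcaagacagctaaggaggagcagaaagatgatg
Reg3a: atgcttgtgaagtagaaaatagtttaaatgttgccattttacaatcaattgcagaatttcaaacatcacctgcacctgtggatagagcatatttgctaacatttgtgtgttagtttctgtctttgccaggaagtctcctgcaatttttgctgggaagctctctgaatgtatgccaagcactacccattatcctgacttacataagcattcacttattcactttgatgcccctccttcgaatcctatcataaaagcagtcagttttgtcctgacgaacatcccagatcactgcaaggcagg
Reg1a: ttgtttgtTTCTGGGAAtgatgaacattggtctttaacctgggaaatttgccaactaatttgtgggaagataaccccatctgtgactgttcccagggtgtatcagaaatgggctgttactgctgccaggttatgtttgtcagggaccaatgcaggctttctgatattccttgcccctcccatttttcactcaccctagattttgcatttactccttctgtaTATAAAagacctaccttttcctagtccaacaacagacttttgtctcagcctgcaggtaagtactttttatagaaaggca

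The TATA box began 32 bases before the start in Reg3g, 29 before it in Reg3b and 29 before it in Reg1a, and the Reg3a window does not hold those letters. Of 33469 rat windows of this length, 14.2% hold TATAAA on either strand. Reg1a has a further match on the other strand, not capitalised, 37 bases into the transcript. The STAT letters began 129 bases before the start of Reg3b and 242 bases before that of Reg1a, and 8.87% of all windows hold them. Another motif, TTGCNNAA for the C/EBP factors, was found in Reg3a, 202 bases before the start, and in 10.6% of all windows. In a global alignment the Reg3g window matched Reg3b at 195 of 292 aligned bases (66.8%) and Reg3a at 70.1%, and Reg3b matched Reg3a at 68.1%. Against Reg1a the 3 Reg3 windows matched at 57.9% (Reg3g), 52.8% (Reg3b) and 59.6% (Reg3a), and the 30 pairs that include a member outside the Reg family ran from 48.6% to 62.4%. The longest run shared by Reg3g and Reg3b was 15 bases, ctgctaacaggaaag, which 2 of the 33469 windows hold.

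The deposited values are MAS5 signals, scaled so that every array had a trimmed mean of 200.1. They were compared on the scale log2(signal + 16), which understates folds of dim genes, and the brighter 60% of probe sets, 18625 in all, entered the test (limma, adjusted over all of them). Of the 9 member probe sets 5 were bright enough: Reg3g, Reg3b, Lyz2, S100a9 and Pigr, and the control mean alone of each lay above the filter's minimum. Reg3a, Reg1a, Lcn2 and S100a8 were dimmer and are given as values. Control array 2 correlated least with the rest (mean r 0.927, against 0.941 to 0.955 for the other arrays) and had the highest GAPDH 3' to 5' signal ratio, a sign of shortened RNA, at 3.79 against 1.58 to 2.36. The 3' to 5' ratio of beta-actin was 6.79 to 9.12 on quercetin arrays and 8.65 to 21.4 on control arrays. That of hexokinase did not single out control array 2, where it was 2.76. It was 2.16 to 6.05 on quercetin arrays, highest on quercetin array 4, and 1.62 to 3.27 on control arrays.

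Reg3g, the lectin best known for keeping gram-positive bacteria off the mouse epithelium, had signals of 535, 2139, 59.2 and 72.4 on quercetin arrays 1 to 4, against 52.3, 97.5, 25.5 and 23.3 on control arrays 1 to 4. Quercetin arrays 1 and 2 lay above every control array, while quercetin arrays 3 and 4 lay below control array 2, so the groups overlapped. The brightest quercetin array was 55.0 times the control median. The means were 701 ± 984 in quercetin and 49.7 ± 34.5 in control (SD, n = 4 each). The difference was 2.32 on the log2(signal + 16) scale (SE 0.838, 95% interval 0.51 to 4.13). Without quercetin array 2 the difference was 1.37.

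Reg3b, first described as rat pancreatitis-associated protein, gave the same picture at lower signals. Its values were 181, 1355, 66.5 and 34.5 on quercetin arrays 1 to 4, against 20.5, 76.8, 25.5 and 41.7 on control arrays 1 to 4. Again quercetin arrays 1 and 2 stood above all controls and the other two lay within the control range. The means were 409 ± 634 in quercetin and 41.1 ± 25.4 in control (SD, n = 4 each). The difference was 1.78 on the log2(signal + 16) scale (SE 0.766, 95% interval 0.12 to 3.43), a fold of 3.43, and it was 0.81 without quercetin array 2.

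Reg3a, the third of the Reg3 lectins, was close to the floor of the arrays. It had 7.27, 31.1, 5.21 and 3.03 on quercetin arrays 1 to 4, against 5.52, 4.79, 1.70 and 8.68 on control arrays 1 to 4. Only quercetin array 2 exceeded the controls, the same array that was highest for Reg3g and Reg3b. The log2 difference of 0.29 (SE 0.284) was 0.01 without that array. Reg1a did not share the pattern: its signals were 22.3, 18.2, 24.7 and 12.4 on quercetin arrays against 42.3, 23.2, 30.2 and 15.3 on control arrays, a log2 difference of -0.28 (SE 0.303) with overlapping groups. Probe sequences were not used here, so signal on one Reg probe set from the transcript of a close relative cannot be told apart from its own.

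**Figure D1:**
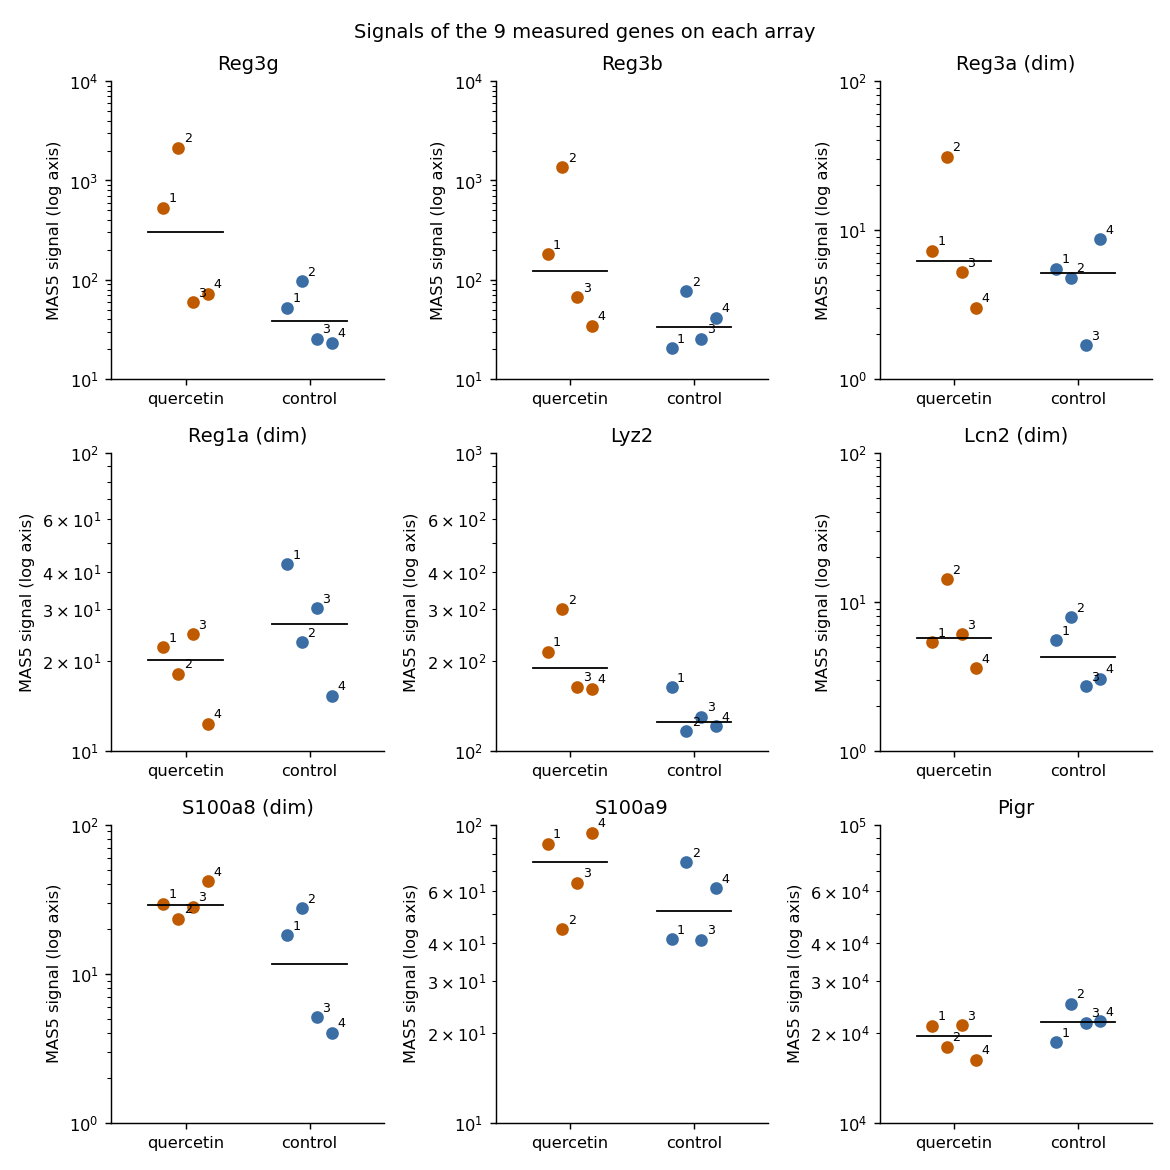
MAS5 signal (log axis) of the 9 measured genes on each array, quercetin left and control right. Points are arrays, numbered as in the labels, and the line is the group median; dim means under the brightness filter. Quercetin array 2 is highest for Reg3g (2139), Reg3b (1355), Reg3a (31.1), Lyz2 (299) and Lcn2 (14.2), and for no gene are the diets fully apart.

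Lyz2, the macrophage lysozyme, was more even. Quercetin arrays 1 to 4 had signals of 216, 299, 165 and 162, against 164, 117, 130 and 121 on control arrays 1 to 4. Of the 4 quercetin arrays 3 lay above all controls, and quercetin array 4 fell just short of control array 1. The means were 210 ± 64.2 in quercetin and 133 ± 21.5 in control (SD, n = 4 each). Its log2 difference was 0.57 (SE 0.211, 95% interval 0.12 to 1.03), a fold of 1.49. Lcn2, which binds the iron carriers of bacteria, is strongly made by inflamed colon in mice, but here it was at the floor: 5.37, 14.2, 6.10 and 3.60 on quercetin arrays against 5.54, 7.87, 2.72 and 3.06 on control arrays. The log2 difference was 0.15 (SE 0.209) and 0.02 without quercetin array 2.

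S100a8 and S100a9 encode the paired subunits of calprotectin, and both were low. S100a8 had signals of 29.4, 23.3, 28.1 and 41.7 on quercetin arrays, against 18.2, 27.6, 5.12 and 4.04 on control arrays. Its quercetin values were close together and 3 of 4 exceeded every control, while control arrays 3 and 4 were the low ones. The log2 difference was 0.71 (SE 0.326), but at such signals it hangs on the constant added before the log: 1.44 with a constant of 1 and 0.29 with 64. S100a9 had 86.4, 44.5, 63.9 and 94.0 on quercetin arrays, against 41.2, 74.7, 41.1 and 61.2 on control arrays, a log2 difference of 0.31 (SE 0.269) with overlapping groups. Here quercetin array 2, highest for the Reg3 lectins, was the lowest quercetin array.

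Pigr was the brightest member, at the 99.96th percentile of all probe sets by mean level. Its signals were 21203, 17983, 21305 and 16310 on quercetin arrays 1 to 4, against 18619, 25123, 21655 and 21956 on control arrays 1 to 4. Quercetin arrays 2 and 4 lay below all controls and the groups overlapped. The means were 19200 ± 2468 in quercetin and 21838 ± 2658 in control (SD, n = 4 each). The log2 difference was -0.19 (SE 0.138, 95% interval -0.48 to 0.11), and its sign turned to 0.05 after quantile normalisation.

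Across the members, dim ones included, 7 of 9 had a higher mean and 2 a lower one in quercetin, with a median log2 difference of 0.31. Over all 18625 tested probe sets, which leave dim ones out, the median was 0.01. The choice of genes drew on this contrast, so the counts and p-values describe the list and are not evidence for it. None of the 5 tested members passed limma's adjusted threshold of 0.05 (adjusted p 0.353 to 0.725), where 0.0107% of all tested probe sets did, and 3 of the 5 had an unadjusted p under 0.05, where 10.8% did. The diets overlapped in all 9 members, dim ones included, against non-overlap in 6.39% of tested probe sets (3.09% higher and 3.3% lower in quercetin). A log2 difference of at least 1 was seen in 2 members, Reg3g and Reg3b, and in 1.18% of tested probe sets.

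**Figure D2:**
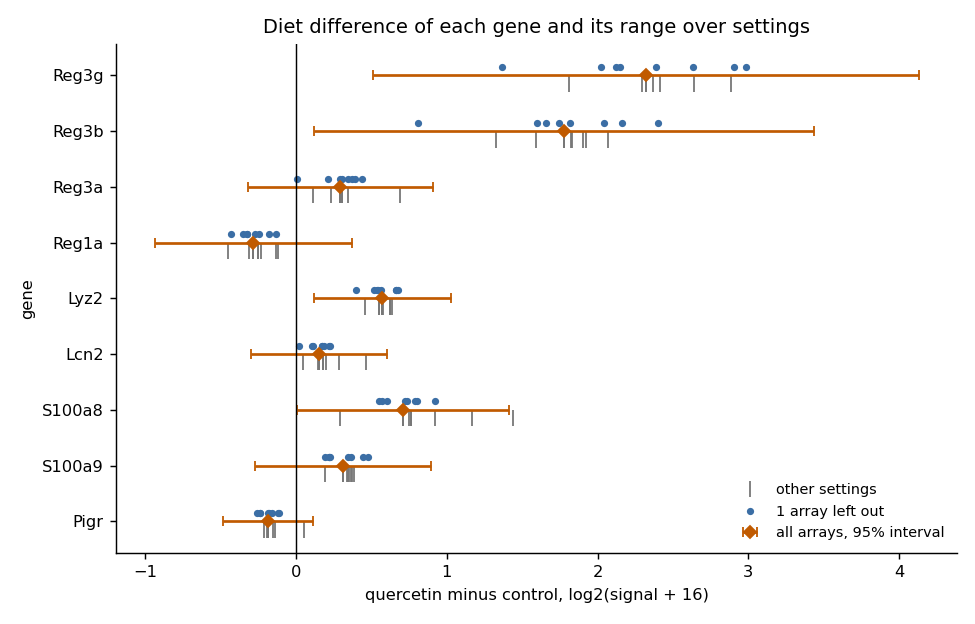
Quercetin minus control on the log2(signal + 16) scale for each gene, with its 95% interval from the limma fit (diamond and bar), the values with 1 array left out (dots) and under the other settings (ticks). Reg3g (2.32) and Reg3b (1.78) are farthest from 0 with the widest intervals, and both have their lowest value without quercetin array 2 (1.37 and 0.81).

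The spread among arrays of the same diet, which does not depend on the difference between diets, set Reg3g and Reg3b apart from nearly every transcript on the array. The within-diet SD of log2(signal + 16) was 1.71 for Reg3g, the second largest of 18625 tested probe sets, and 1.54 for Reg3b, the fourth largest, against a median of 0.307. Most of it lay in the quercetin group, where Reg3g ranked 1 and Reg3b ranked 2 (SD 2.31 and 2.10), with signals 36.1-fold and 39.3-fold apart between the highest and lowest array. Within the control group the SDs were 0.715 for Reg3g and 0.601 for Reg3b, at the 92.6th and 87.5th percentile, and the highest and lowest array were 4.18-fold and 3.75-fold apart. The other tested members were ordinary: S100a9 (0.362) and Lyz2 (0.307) were near the middle and Pigr (0.183) at the 15.7th percentile. This large spread was known when the genes were chosen.

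**Figure D3:**
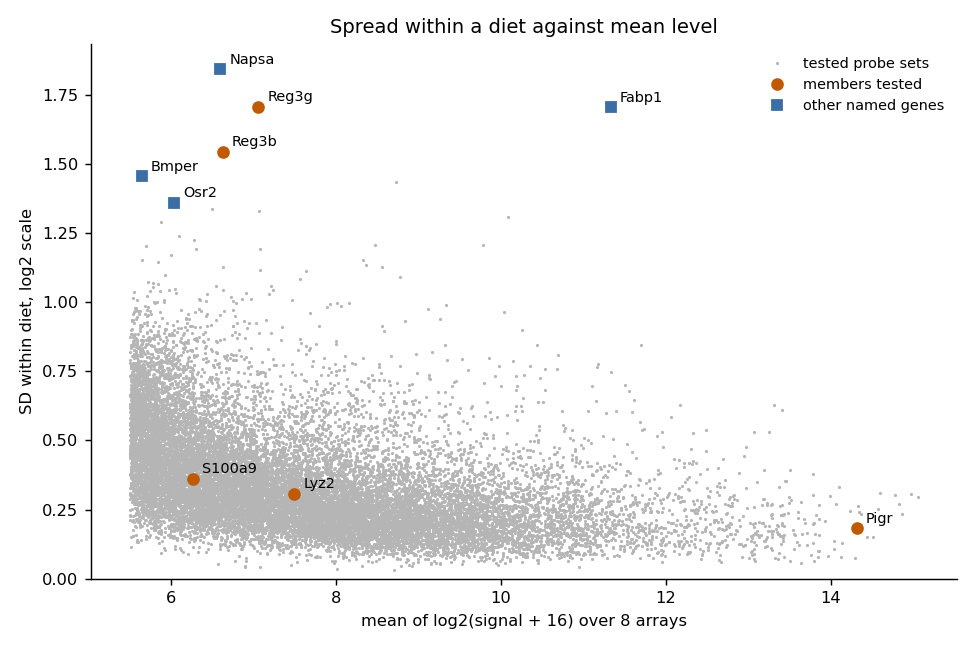
SD within diet against the mean level, both on the log2(signal + 16) scale, for the 18625 tested probe sets (grey), the 5 tested members (circles) and 4 other genes among the 8 most widely spread (squares). Reg3g (1.71) and Reg3b (1.54) lie far above the cloud, whose median is 0.307, while Lyz2, S100a9 and Pigr lie inside it.

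The array pattern of Reg3g and Reg3b was also seen in most of the other probe sets with the widest spread, which were looked up after the values were seen. For both Reg3g and Reg3b the 3 highest arrays were quercetin 2, quercetin 1 and control 2, in that order. The same 3 arrays were the highest for 7 of the 8 tested probe sets with the largest within-diet SD (Reg3g and Reg3b, which set the pattern, and 5 of the other 6), and for 651 of all 18625 tested (3.5%). The exception, a probe set with no gene symbol, had its lowest signals on quercetin array 2 (126) and control array 2 (62.7). On quercetin array 1 it was high (737), second to control array 1 (1180). Among those with the pattern was Fabp1, the fatty acid binding protein of enterocytes and liver, with signals of 11209, 16099, 2060 and 3770 on quercetin arrays against 255, 4493, 2684 and 406 on control arrays. Napsa, an aspartic protease known from lung and kidney, had 335, 1261, 51.4 and 90.4 on quercetin arrays against 5.38, 234, 7.24 and 3.33 on control arrays. Bmper, a secreted regulator of BMP signalling, had its highest signal, 355, on quercetin array 2, with 102 on quercetin array 1 and 90.9 on control array 2, and at most 38.5 elsewhere. Osr2, a developmental zinc finger factor, had 281 on quercetin array 2, 115 on quercetin array 1 and 112 on control array 2, and at most 46.9 elsewhere. The GAPDH 3' to 5' ratio was 1.97 on quercetin array 1, 2.27 on quercetin array 2 and 3.79 on control array 2. What the scrapings had in common on these arrays was not tested.

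**Figure D4:**
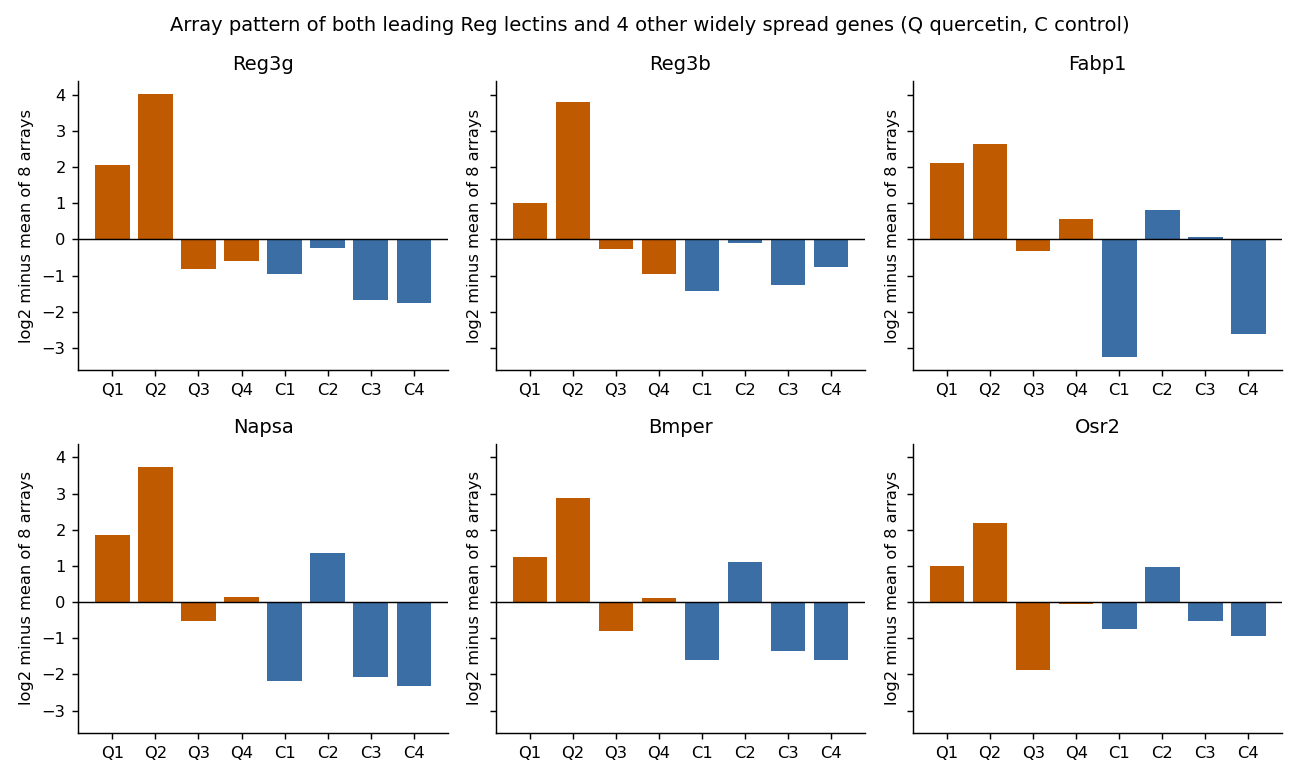
Bars give log2(signal + 16) on each array minus the mean of the 8 arrays, for Reg3g, Reg3b and 4 other genes of wide spread (quercetin arrays Q1 to Q4 left, control arrays C1 to C4 right). In all 6 panels Q2, Q1 and C2 are the highest arrays.

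The members' values were then correlated pairwise over the 8 arrays, 36 pairs in all, on the log2(signal + 16) scale. The permutations ran over all 8 arrays, both diets together. The diet difference and the large spread were known when the genes were chosen. The permutation p-values therefore describe the list and are not independent evidence that its members vary together. Reg3g and Reg3b had the highest Pearson r, 0.95 (exact permutation p = 0.00280, adjusted p = 0.0902), with a Spearman rho of 0.786 (exact permutation p = 0.0279, adjusted p = 0.503). The r of their deviations from the diet means was 0.928. It rested on quercetin arrays 1 and 2, the 2 arrays farthest from the median of Reg3g: without them r was 0.516 (exact permutation p = 0.299, adjusted p = 0.825). Reg3g with Lyz2 (0.90, exact permutation p = 0.00501, adjusted p = 0.0902) and Reg3b with Reg3a (0.91, exact permutation p = 0.0181, adjusted p = 0.119) followed, with r of 0.235 and 0.264 without the same 2 arrays. Reg3g with Lcn2 kept most of its size, 0.828 (exact permutation p = 0.0196, adjusted p = 0.119) and 0.797 without those arrays (exact permutation p = 0.0708, adjusted p = 0.425), although Lcn2 was at the floor. None of the 36 pairs passed 0.05 after adjustment, while 9 had an unadjusted p under 0.05 for r and 2 for rho. Reg1a had an r of -0.219 with Reg3g and -0.309 with Reg3b. S100a8 and S100a9, which act as one complex, had an r of 0.621 and a rho of 0.833 with each other (exact permutation p = 0.106 and 0.0154, adjusted p = 0.317 and 0.503), and an r of at most 0.438 with any Reg lectin over the 8 arrays. That value, for Reg3g with S100a8 (exact permutation p = 0.271, adjusted p = 0.697), was 0.911 without quercetin arrays 1 and 2 (exact permutation p = 0.0208, adjusted p = 0.375), so it too depended on those arrays.

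**Figure D5:**
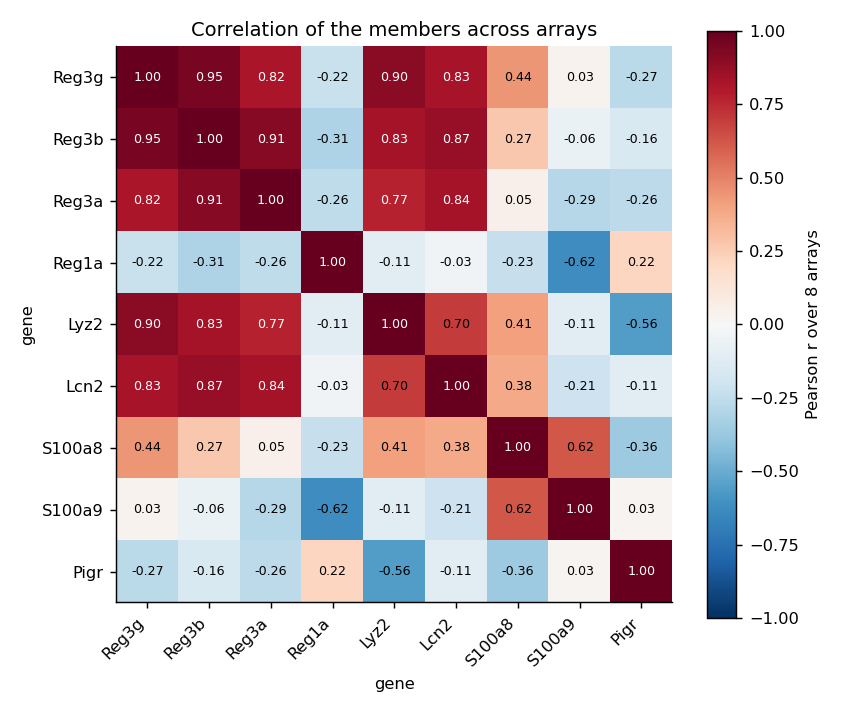
Pearson r over the 8 arrays between the log2(signal + 16) values of the 9 measured genes. Reg3g, Reg3b, Reg3a, Lyz2 and Lcn2 form a block with r from 0.699 to 0.95, and Reg1a, S100a8, S100a9 and Pigr stand outside it. Without the 2 arrays farthest from the median of a pair's first gene, r in the block runs from -0.317 (Reg3b and Lyz2) to 0.797 (Reg3g and Lcn2). For Reg3g and Reg3b it is 0.516.

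Among 10261 other genes the patterns most like Reg3g over the 8 arrays were those of Mgat4a, an N-glycan branching enzyme (r = 0.984), Sdhaf1, an assembly factor of succinate dehydrogenase (0.966), and Dck, a nucleoside kinase (0.938). Mgat4a had signals of 650, 813, 512 and 532 on quercetin arrays against 530, 524, 443 and 451 on control arrays, with quercetin arrays 2 and 1 highest, as for Reg3g, but control array 2 below control array 1. Its range was far smaller, 0.85 against 5.78 for Reg3g on the log2(signal + 16) scale. The patterns most like Reg3b were those of Aasdh (0.969), the cytokine-inducible ubiquitin-like gene Ubd (0.951) and the leukocyte adaptor gene Lpxn (0.949). Ubd had 142, 429, 134 and 78.3 on quercetin arrays against 68.4, 137, 87.5 and 59.4 on control arrays. An r of at least 0.9 was reached by 19 genes for Reg3g and 14 for Reg3b, all read over the same 8 arrays. The closest genes to the other members were Wipi2, Traf5 and Dgki for Reg3a (0.921 to 0.939), Abhd11, Cox7b and Gmfg for Reg1a (0.891 to 0.907), Alkbh6, Qng1 and Mal2 for Lyz2 (0.937 to 0.953), and B4galnt4, Cyp2f4 and Yaf2 for S100a8 (0.927 to 0.956).

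Transcripts of mucosal signals, of microbe sensors and of other antimicrobial genes were read through lists. Whether any of them acts on the members was not tested. Of 41 genes tested in 4 such lists, 27 had a higher and 14 a lower mean in quercetin, where 5741 of all 10266 genes tested had a higher one. Of the 41, 0 passed limma's adjusted threshold (0.00974% of all genes tested), and 4 had an unadjusted p under 0.05 (9.39% of all genes). The diets did not overlap in 1 gene, which was higher, where 3.77% of all genes were higher and 2.07% lower without overlap. The interleukin-22 and STAT3 list held 14 genes, of which 11 had a probe set and 7 were bright enough to be tested. All 7 had a higher mean, with a median of 0.21 against 0.04 over all genes. Fut2, which adds fucose to epithelial glycans, was the gene without overlap, with signals of 1709, 1715, 1598 and 1863 on quercetin arrays against 1156, 1521, 1182 and 1392 on control arrays (log2 difference 0.39, SE 0.13, limma adjusted p = 0.33). Chosen after their values were seen, Stat3 had a log2 difference of 0.40 (limma adjusted p = 0.438) and Socs3, the feedback inhibitor that STAT3 induces, 0.73 (limma adjusted p = 0.495), with Socs3 signals of 18.6, 79.3, 65.8 and 63.7 on quercetin arrays against 28.0, 40.7, 21.8 and 13.9 on control arrays. Socs3 was lowest in quercetin on array 1, where Reg3g was the second highest.

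The other 3 lists were mixed. Of interleukin-17 and related signals 4 of 9 were higher (median -0.13), and the smallest p belonged to the receptor chain Il17rc (0.27, SE 0.18, limma adjusted p = 0.62). Microbe sensors had 7 of 10 higher (median 0.16), led by the inflammasome sensor Nlrp6 at 0.33 (SE 0.17, limma adjusted p = 0.53). Other antimicrobial proteins had 9 of 15 higher (median 0.06). Among them Rnase4, a secreted ribonuclease, had a log2 difference of -0.46 (SE 0.16, limma adjusted p = 0.35), and the abundant Lypd8, which keeps flagellated bacteria off the mouse colon, -0.19. Saa3, an acute phase protein of mucosa, was picked after its values were seen. It had 6797, 7874, 2546 and 3266 on quercetin arrays against 1208, 3254, 4762 and 1655 on control arrays. The same 2 quercetin arrays were highest as for Reg3g and Reg3b (log2 difference 0.96, limma adjusted p = 0.44). None of the 4 further Reg family symbols looked for was analysed here.

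Markers of the cells that make these proteins are given as signals summed over each list's genes, dim ones included. The 17 colonocyte markers summed to 134728 to 150270 in quercetin and 135913 to 156715 in control, led by Krt8, Krt19 and Epcam. Neutrophil markers had 12 of 20 genes on the array and summed to 244 to 275 in quercetin and 151 to 292 in control, with S100a8, S100a9 and Lcn2 among them. Of these, 3 passed the brightness filter (S100a9, Cybb and Ncf4). The receptor Cxcr2 and the integrin Itgam, picked from the list after their values were seen, had signals of 1.28 to 9.44 and 2.70 to 9.83 over all arrays. Macrophage markers (15 of 16 genes, Lyz2 among them) summed to 637 to 904 in quercetin and 547 to 688 in control, highest on quercetin array 2. Goblet cell markers (10 of 12) summed to 78228 to 94283 in quercetin and 82836 to 93423 in control, with Muc2, Agr2 and Muc3 the brightest. IgA plasma cell genes (9 of 15) summed to 4868 to 5488 in quercetin and 4447 to 4964 in control, led by Xbp1, Sdc1 and Tnfsf13. Gene by gene they were mixed: of the 7 tested, 3 had a higher and 4 a lower mean in quercetin (median log2 difference -0.06). In 1 of the 7 the diets did not overlap, and it was lower, where 2.07% of all genes tested were. The part of these cell types in the members' values was not tested, and in whole mucosa more cells of a type and more RNA per cell cannot be told apart.

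Pancreas and small intestine are the tissues best known for Reg genes, and their markers were looked for too. Pancreatic acinar markers (17 of 20) summed to 524 to 800 in quercetin and 473 to 683 in control, highest on quercetin array 2, with Cela1 the brightest. The acinar enzymes Cpa1 and Prss2 were at 2.98 to 5.55 and 0.63 to 3.61 over all arrays, and the trypsinogen gene Prss1 was at 38.9 on quercetin array 2 and at most 9.29 on the other arrays. Small intestinal enterocyte markers (12 of 15) summed to 3511 to 5162 in quercetin and 3541 to 4334 in control. That sum was highest on quercetin array 1 and lowest on quercetin array 2. It was led by Dpp4, Fabp2 and Apoa1, with Alpi and Apoa4 under the brightness filter. Paneth cell markers (4 of 10) summed to 1256 to 2693 in quercetin and 1027 to 1917 in control, nearly all from the phospholipase Pla2g2a, while Mmp7 and the defensins Defa5 and Defa7 were dim. T cell markers (10 of 12) summed to 526 to 809 in quercetin and 393 to 771 in control, B cell markers (7 of 11) to 313 to 489 in quercetin and 255 to 390 in control, and both were highest on quercetin array 2. Smooth muscle markers (14 of 14) summed to 3445 to 3847 in quercetin and 3978 to 5947 in control, lowest on quercetin array 2, and squamous epithelium markers (10 of 15) to 156 to 329 in quercetin and 216 to 336 in control.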

How the data were processed

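Each of the 8 samples was 1 rat array of 31099 probe sets. The deposited values are MAS5 signal intensities, per the submitters' processing notes, on a linear scale scaled by the authors to a common trimmed mean. From them log2(signal + 16) was computed, 57 control probe sets were left out, and the upper 60% by mean (18625) were fitted with limma 3.58.1 in R 4.3.3 (eBayes with a trend, Benjamini-Hochberg over all of them, two-sided). Array number limits the precision. Correlations used exact two-sided permutation of the 8 arrays (scipy 1.17.1), and promoter windows were aligned with Biopython 1.88. The fit was tested on simulated data. Samples were grouped by title. A probe set was named only where the platform annotation gives 1 symbol (20826 probe sets; 436 have several and 9780 none).

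The members and lists were chosen with earlier results of these data known. All members were given; further names are the 3 genes most like each member with a range of at least 1 (log2), from each pathway list up to 3 genes without overlap or else the 1 with the smallest p, and for some cell types up to 3 of the brightest tested markers. Genes outside this rule are said to be chosen after their values were seen, and the dim markers and Lypd8, Defa5, Defa7, Mmp7, Cxcr2, Itgam, Cel, Cpb1, Pnlip, Cpa1, Prss1, Prss2, Alpi and Apoa4 were too. The alternatives covered the added constant, the normalisation, the filter, the fit and left-out arrays.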

Additional observations from a re-analysis of the deposited data

How the results depend on the processing

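The count of member probe sets past limma's adjusted threshold was 0 under all 19 alternatives. Over all tested probe sets the count was 2. It was 1 with a constant of 1 before the log, with quantile normalisation, with median centring, with no filter, with eBayes without a trend and with the replicate number as a block, 0 without control arrays 1 and 2, and 3 with a constant of 64. With single arrays left out it was 1 to 2. Whether the replicate numbers pair the samples was not settled. Deviations of same-numbered arrays correlated at -0.02, 0.16, -0.15 and 0.14. Such arrays were each other's best match across the diets for replicate 2 only. The difference kept its sign in all 19 alternatives for 8 of the 9 genes, and for Pigr in 18 (0.05 under quantile normalisation). Reg3g ranged from 1.37 to 2.98 and Reg3b from 0.81 to 2.40, both lowest without quercetin array 2. Lcn2 was 0.46 with a constant of 1, and S100a8 was 1.17 without control arrays 1 and 2. With 4 arrays a group and 4 members under the brightness filter, differences of dim genes were not resolvable here.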
